A study of Mus musculus with 4 samples.

Results

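The transcripts of 33 glutamate and GABA receptor subunits, chosen by gene symbol from the 32285 genes of a mouse olfactory bulb data set, were measured across 4 spatial libraries. The members are 4 AMPA, 6 NMDA, 5 kainate and 1 delta receptor subunit genes, 6 metabotropic glutamate receptor genes, 9 GABA-A subunit genes and both GABA-B subunit genes, and other subunits of these families were not analysed here. Together they held 108636 of 40596506 unique molecular identifiers (UMIs, each standing for 1 captured RNA molecule), or 0.2676%. The study set olfactory bulb of 1 control mouse beside that of 1 mutant mouse, both aged 5 months. In the mutant, blockade of VEGF at embryonic stage E13.5 came from a transgenic soluble VEGFR1, expressed in brain under a tetracycline-regulated camk2a-tTA driver, and the design text gives 28% degeneration of the bulb. The labels do not say which of these alleles the control carried. Coronal fresh-frozen sections of 10 µm lay on 2 Visium capture areas per mouse (2 sections and 1 section of the control, 2 on each area of the mutant), on which each barcoded spot collects RNA from a small area, often of several cells.

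AMPA, NMDA and kainate receptors are ion channels built of several subunits and opened by glutamate, and the choice of subunits sets their speed, calcium entry and block by magnesium. GABA-A receptors are chloride channels opened by GABA, while metabotropic glutamate (mGlu) and GABA-B receptors act through G proteins. In the olfactory bulb, mitral and tufted cells release glutamate onto the dendrites of granule and periglomerular interneurons, which release GABA back onto them, so both receptor families sit within the same small circuits.

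The deposited matrix pools all capture areas, and its barcodes carry a final number, 1 to 4, that no sample label repeats. The 4 libraries are therefore reported by number, control and mutant were not compared, and none of the values can be credited to 1 of the mice. Libraries 1 to 4 had 1662, 715, 1296 and 943 spots with at least 500 UMIs, with medians of 7186 to 9829 UMIs per spot, and 1408 of 2768 distinct barcodes occurred in more than 1 library, since Visium barcodes mark array positions. Marker lists differed widely between libraries: the forebrain excitatory neuron list (7 genes, all over 2-fold) summed to 168, 204, 1546 and 1660 CPM in libraries 1 to 4 (UMIs as counts per 1000000 UMIs of the library), the periglomerular list (3 of 4 genes over 2-fold) to 871, 819, 184 and 182 CPM, the mitral and tufted list (4 of 6) to 2702, 2358, 1143 and 1027 CPM and the phagocyte list (6 of 6) to 267, 256, 1197 and 992 CPM. The reactive glia list (5 of 5) summed to 97.9, 108, 1639 and 1245 CPM, the leptomeninges list (5 of 5) to 155, 216, 785 and 593 CPM and the olfactory mucosa list (5 of 5) to 609, 33.3, 267 and 529 CPM, the last of which set libraries 1 and 2 apart. The part of these lists in the receptor values was not tested. The granule cell list had 0 of 5 genes over 2-fold, at 1787, 1979, 1514 and 1539 CPM, and the pan-neuronal list 0 of 7, at 5613, 5679.5, 4869.8 and 4852 CPM. Mitral, tufted and granule cell markers were above 0 in all 4 libraries. At this depth the forebrain and olfactory mucosa lists were too, so such a value does not by itself show which tissue a library held. In whole-library sums, fewer cells of a type and less RNA per cell cannot be told apart.

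The summed receptor level differed less between libraries than the make-up of the receptors. All members together lay at 2716, 2879, 2589 and 2623 CPM in libraries 1 to 4. Of 31 members with at least 200 UMIs, 8 differed over 2-fold between their highest and lowest libraries (25.8%), where 11.1% of 12097 genes of all kinds passed the same threshold. The 8 were Gria3, Gria4, Grin2c, Grin2d, Grin3a, Grik4, Grm4 and Gabbr2. The median of this ratio was 1.60 over the members and 1.27 over all genes tested, and 12 of the 31 members stayed under 1.5. No test was made, because no library is a replicate of another. The intervals in parentheses are exact 95% intervals and cover counting error only. The count fell to 5 of 30 without library 3 (7.81% of all genes), to 4 of 30 without library 4 (8.26%), to 5 of 31 without the spots of the Nppa region (11.6%) and to 3 of 30 without those of the Trbc2 and Lmo3 regions (9.9%). In the last of these settings the count lay near the share of all genes. The regions named here are sets of spots clustered without receptor or marker genes and named by their leading gene, and they are taken up further on. With levels scaled to the pan-neuronal list, 9 members passed (12.9% of all genes), but Gria4, Grin2c and Grm4 dropped out and Grin2a, Grin2b, Grm5 and Gabrg3 came in.

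**Figure D1:**
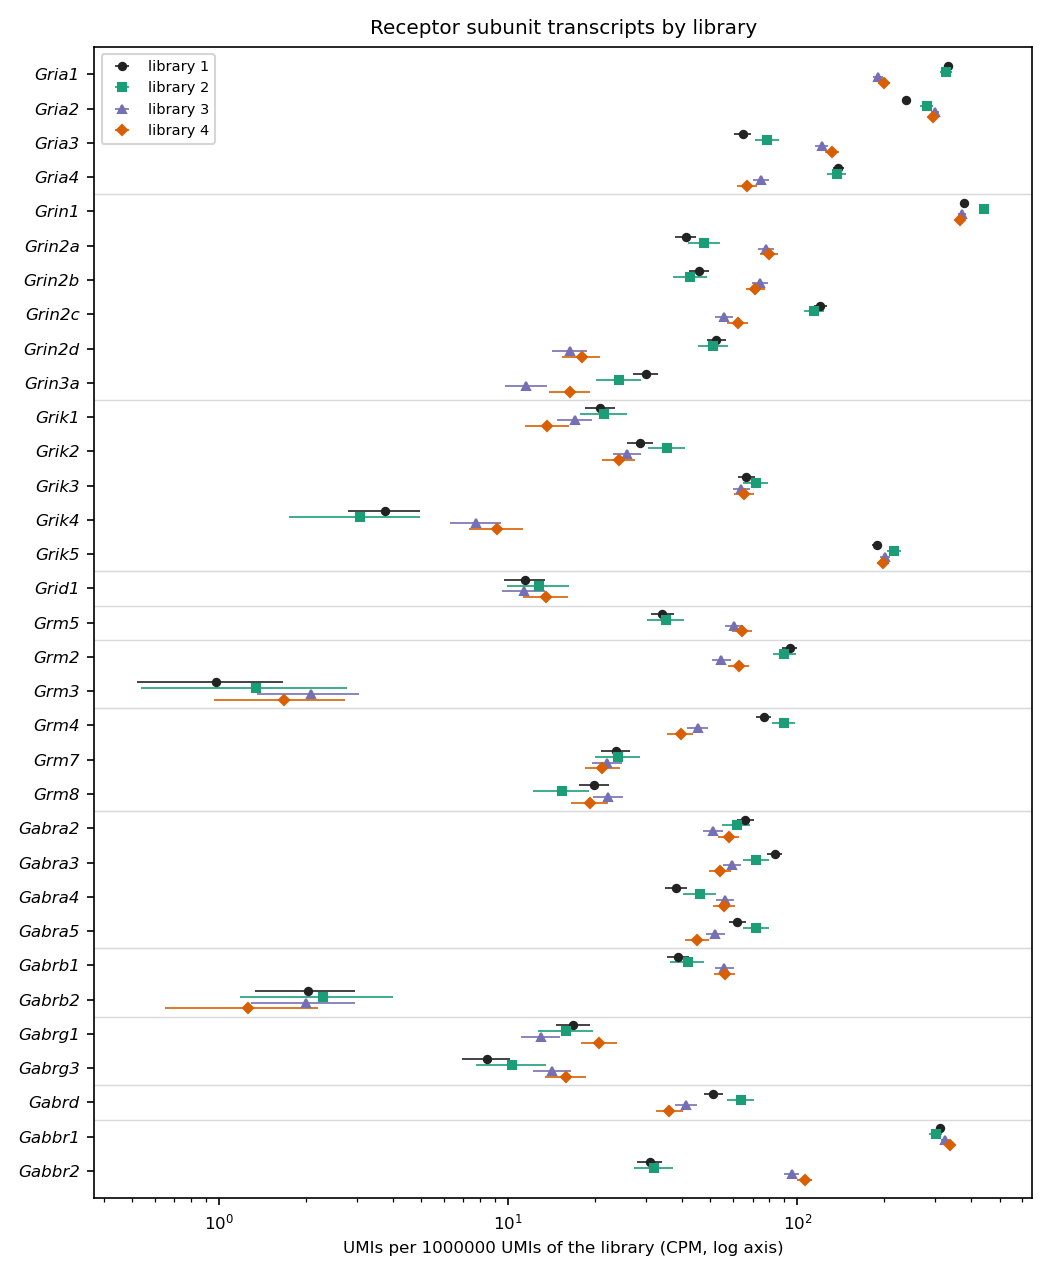
Each row is 1 receptor subunit gene, ordered by class, and each point is its level in 1 library in CPM on a log axis, with exact 95% Poisson intervals. Gabbr2, Grin2d and Grin3a spread widely over the libraries, while Grik3, Grik5, Grm7 and Gabbr1 overlap or nearly do.

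AMPA receptors carry most fast excitation. Their 4 subunit genes summed to 773, 822, 684 and 693 CPM in libraries 1 to 4, a spread of 1.202-fold (1.16 to 1.25). Gria1, encoding GluA1, lay at 332, 327, 189.7 and 199 CPM, higher in libraries 1 and 2, with a spread of 1.75-fold (1.66 to 1.84). Gria4, encoding GluA4, a subunit of fast channels, lay at 139, 137, 74.8 and 67.0 CPM, a spread of 2.07-fold (1.89 to 2.27), again with libraries 1 and 2 above the other two. Gria3, encoding GluA3, went the other way, at 64.7, 78.7, 122 and 132 CPM, with a spread of 2.04-fold (1.87 to 2.23). Gria2, which encodes the subunit that makes the channel nearly impermeable to calcium, differed least of the 4, at 238, 279.9, 298 and 295 CPM and 1.25-fold (1.196 to 1.32). The share of AMPA UMIs that came from Gria2 and Gria3 together was 39.1, 43.6, 61.3 and 61.6% in libraries 1 to 4, where the exact binomial interval of library 2 was 42.1 to 45.1% and that of library 3 was 60.3 to 62.4%. Capture differs between genes, so such shares are compared between libraries and not between subunits.

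NMDA receptors need glutamate and a co-agonist, and the obligatory GluN1 subunit is encoded by Grin1. Grin1 lay at 376, 443, 371 and 364 CPM, a spread of 1.22-fold (1.15 to 1.28). The GluN2 subunits set the channel's kinetics, and they split into pairs. Grin2a and Grin2b, whose products form the channels typical of forebrain synapses, lay at 41.1, 47.7, 77.7 and 79.9 CPM and 45.8, 42.7, 74.4 and 71.6 CPM in libraries 1 to 4, with spreads of 1.94-fold (1.74 to 2.17) and 1.74-fold (1.51 to 2.03). Grin2c, encoding GluN2C, lay at 120.2, 114, 55.8 and 62.2 CPM, a spread of 2.15-fold (1.97 to 2.36). Grin2d, whose product gives slow channels with weak magnesium block, lay at 52.5, 51.1, 16.4 and 17.9 CPM, a spread of 3.21-fold (2.74 to 3.77). Libraries 1 and 2 were thus the low ones for Grin2a and Grin2b and the high ones for Grin2c and Grin2d. The share of GluN2 UMIs from Grin2a and Grin2b together was 33.5, 35.3, 67.8 and 65.4%, and the interval of library 2, 32.8 to 38.0%, lay apart from that of library 4, 63.4 to 67.4%. Grin3a, encoding GluN3A, a subunit that lowers calcium entry, lay at 29.9, 24.1, 11.6 and 16.4 CPM, a spread of 2.59-fold (2.13 to 3.15), with libraries 1 and 2 highest.

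Of the 4 members over 2-fold with their highest level in library 1, Gria4, Grin2c and Grin2d are shown with the 250 bases before their first listed RefSeq start (GRCm38.p6), because all were highest in the same library. Grin3a was not matched. The sequences run 5′ to 3′, and capitals mark the GC box GGGCGG, searched on both strands.
Gria4, chr9:4796235-4796484, minus strand: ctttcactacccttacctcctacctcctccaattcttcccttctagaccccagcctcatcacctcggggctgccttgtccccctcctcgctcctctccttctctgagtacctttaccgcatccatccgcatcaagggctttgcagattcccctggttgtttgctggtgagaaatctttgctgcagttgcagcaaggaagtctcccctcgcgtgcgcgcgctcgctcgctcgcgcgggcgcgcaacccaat
Grin2c, chr11:115267244-115267493, minus strand: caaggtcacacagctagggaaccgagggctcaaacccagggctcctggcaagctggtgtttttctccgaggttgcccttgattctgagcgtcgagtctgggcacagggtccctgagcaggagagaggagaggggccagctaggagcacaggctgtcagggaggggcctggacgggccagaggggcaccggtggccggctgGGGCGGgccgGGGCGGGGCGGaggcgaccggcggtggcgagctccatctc
Grin2d, chr7:45866682-45866931, minus strand: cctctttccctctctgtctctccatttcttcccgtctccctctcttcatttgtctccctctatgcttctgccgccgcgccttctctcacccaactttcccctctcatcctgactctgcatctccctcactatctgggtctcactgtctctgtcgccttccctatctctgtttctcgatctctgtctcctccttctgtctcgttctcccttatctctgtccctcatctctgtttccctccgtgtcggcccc
The Grin2c stretch held 3 GC boxes close together and was 68.8% G or C, with 15 CpG dinucleotides. Gria4 had 16 CpG at 58.8% and Grin2d 9 at 54.4%, and neither held the motif in this window. Of all 32851 RefSeq promoters of this length, 32.74% held it, as did 15 of 30 promoters of the 23 members matched. The 3 genes thus had no match of this motif in common.

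**Figure D2:**
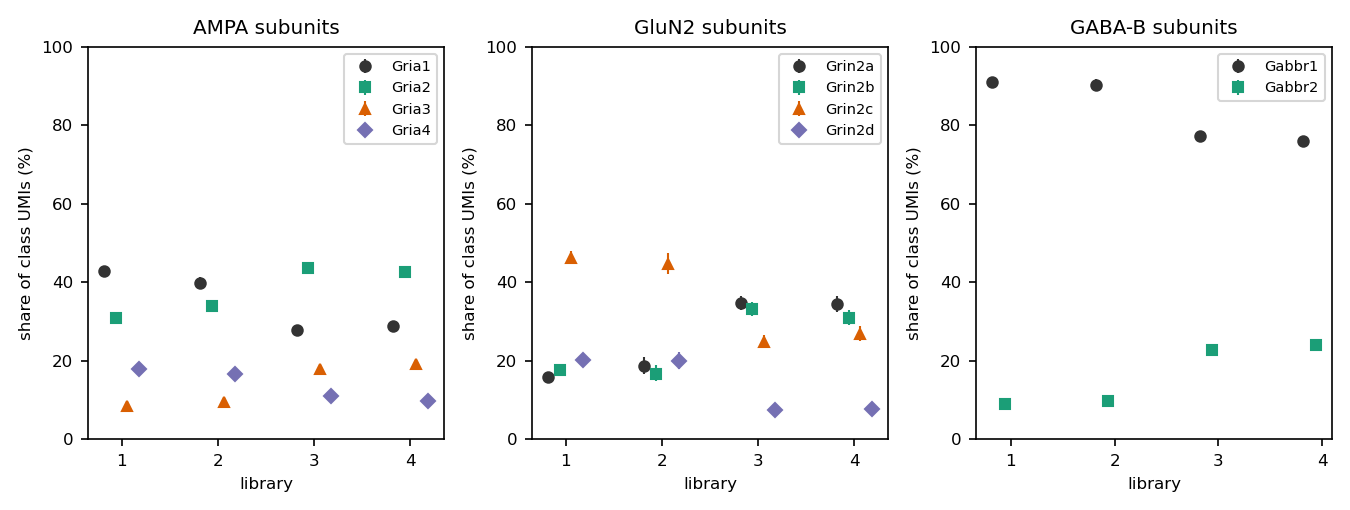
Each panel gives, for 1 receptor class, the share of its UMIs (%) that came from each subunit gene in libraries 1 to 4, with exact 95% binomial intervals. Gria2, Gria3, Grin2a, Grin2b and Gabbr2 held larger shares in libraries 3 and 4 than in libraries 1 and 2.

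Kainate receptor subunits differed less. Their 5 genes summed to 309, 347, 316 and 309.9 CPM, a spread of 1.13-fold (1.06 to 1.19). The low-affinity subunit genes Grik1, Grik2 and Grik3 lay at 20.8, 21.4, 16.99 and 13.6 CPM, 28.6, 35.4, 25.8 and 24.1 CPM and 66.7, 71.8, 64.1 and 65.3 CPM, and the interval of the spread of Grik3, 1.12-fold (0.989 to 1.27), held 1. Grik5, encoding a high-affinity subunit that works only with the others, lay at 189, 216, 201 and 198 CPM, a spread of 1.14-fold (1.06 to 1.23). Grik4, the other high-affinity subunit gene, was the exception at 3.76, 3.06, 7.74 and 9.13 CPM and 2.98-fold (1.74 to 5.44), on 250 UMIs in all. Grid1, which encodes the delta receptor GluD1, a partner of cerebellins at synapses, lay at 11.4, 12.8, 11.3 and 13.53 CPM, and the interval of its spread, 1.19-fold (0.934 to 1.53), held 1.

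The mGlu receptors fall into groups by their signalling. Grm5, the group I member, whose product raises calcium at postsynaptic sites, lay at 34.1, 35.2, 60.5 and 64.5 CPM, a spread of 1.89-fold (1.67 to 2.14), with libraries 3 and 4 highest. Grm2, of group II, whose product restrains transmitter release, lay at 94.0, 90.2, 54.7 and 62.6 CPM, a spread of 1.72-fold (1.56 to 1.89), with libraries 1 and 2 highest. The other group II gene, Grm3, had 62 UMIs in all and was not set against the threshold. In group III, the family of presynaptic autoreceptors, Grm4 lay at 76.4, 89.6, 45.3 and 39.4 CPM, a spread of 2.27-fold (1.98 to 2.61). Grm7, at 23.5, 23.9, 22.02 and 21.2 CPM, had a spread of 1.13-fold (0.896 to 1.42) that counting error could give, and Grm8 lay at 19.8, 15.3, 22.1 and 19.2 CPM, a spread of 1.44-fold (1.12 to 1.87). The share of group III UMIs from Grm4 was 63.8, 69.5, 50.7 and 49.4% in libraries 1 to 4.

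None of the 8 GABA-A genes tested passed the 2-fold threshold, where 11.1% of all genes did. At that share, 8 genes are too few for the count to set them apart from other genes. The ratios of the 8 ran from 1.29 for Gabra2 to 1.88 for Gabrg3, all above the median of 1.27 over all genes tested. The ninth gene, Gabrb2, had 76 UMIs in all. The alpha subunit genes, whose products set the drug and GABA sensitivity of the channel, summed to 249.8, 252, 219 and 213 CPM, a spread of 1.18-fold (1.104 to 1.27). Gabra2 lay at 66.1, 61.6, 51.1 and 57.9 CPM, Gabra3 at 83.5, 72.2, 59.4 and 53.9 CPM and Gabra5 at 62.0, 72.0, 52.1 and 45.0 CPM, each lower in libraries 3 and 4. Gabra4 lay at 38.2, 45.9, 56.2 and 55.8 CPM, higher in libraries 3 and 4. Gabrb1, encoding a beta subunit, went with Gabra4 at 38.7, 41.7, 55.8 and 56.1 CPM, and so did the gamma subunit gene Gabrg3 at 8.42, 10.3, 14.2 and 15.8 CPM, with a spread of 1.88-fold (1.46 to 2.42). Gabrg1 lay at 16.8, 15.9, 13.0 and 20.7 CPM, with libraries 3 and 4 at the ends of its range. Gabrd, whose product is found in receptors outside synapses that carry tonic inhibition, lay at 51.3, 63.7, 41.2 and 36.1 CPM, a spread of 1.77-fold (1.51 to 2.06).

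The GABA-B receptor is a dimer in which the product of Gabbr1 binds GABA and that of Gabbr2 couples to the G protein. Gabbr1 lay at 311, 300.4, 324 and 337 CPM, within 1.12-fold (1.05 to 1.19). Gabbr2 lay at 30.9, 32.0, 95.6 and 106 CPM, and its spread of 3.43-fold (3.06 to 3.86) exceeded that of the other members tested. The libraries fell apart for one subunit and not for the other, so that Gabbr2 held 9.04, 9.62, 22.8 and 24.0% of GABA-B UMIs, and the interval of library 2, 8.27 to 11.1%, lay apart from that of library 3, 21.7 to 24.0%.

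The genes that work with these receptors differed between libraries as well. Of 44 pathway genes in 6 lists, 42 had at least 200 UMIs and 9 passed the 2-fold threshold (21.4%, against the 11.1% of all genes), with a median ratio of 1.34. Of 13 auxiliary subunits of AMPA and kainate receptors tested, 6 passed. Cacng3, encoding a transmembrane AMPA receptor regulatory protein that aids surface delivery, lay at 26.7, 33.5, 88.6 and 97.5 CPM, a spread of 3.66-fold (3.23 to 4.14). Gsg1l, encoding a negative regulator of AMPA receptors, was also highest in library 4, at 9.85, 9.76, 21.2 and 22.6 CPM. The other 4 were highest in library 1: the regulatory protein genes Cacng5 at 166, 152, 78.4 and 68.6 CPM and Cacng7 at 95.98, 90.4, 42.7 and 31.4 CPM, and the Shisa family genes Shisa6 at 55.5, 51.7, 22.2 and 16.3 CPM and Shisa9 at 153, 144, 57.8 and 57.6 CPM. Of 16 scaffold genes, only Grip2, whose product binds AMPA receptor tails, passed, at 145, 161, 64.1 and 59.9 CPM. Of the 3 cerebellin genes, whose products bind delta receptors, Cbln1 at 97.9, 85.4, 52.0 and 44.3 CPM and Cbln4 at 39.9, 34.1, 18.0 and 20.03 CPM passed. None of the 2 mGlu partner genes, 6 GABA-A scaffold and trafficking genes and 2 GABA-B auxiliary subunit genes tested did so. Auxiliary subunits thus differed in both directions, as the AMPA subunits themselves did.

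To ask where the receptor transcripts lay, the 10% of spots with the largest share of UMIs in a marker list were set against all other spots of the same library. These sets are ends of a range and not cell types: over the lists described, 8 (leptomeninges, library 2) to 202 spots (astrocytes, library 1) lay within 10% of the limiting share. A member was called where its ratio passed 1.5-fold in the same direction in all 4 libraries, which 26 of the 33 could do with at least 100 UMIs in each library. Later counts with a library or list gene left out are given without the share of all genes.

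In granule-ranked spots, 8 of 26 members were above the rest, where 6.76% of all genes were, and all receptors together lay 1.56, 1.54, 1.52 and 1.40-fold above the rest in libraries 1 to 4. Granule cells are the axonless GABAergic interneurons of the deep bulb. Grm4 had ratios of 3.74, 3.11, 4.64 and 4.60, the highest of the 8 in libraries 1, 3 and 4, and reached 258 CPM against 69.0 CPM in library 1. Grik2 had ratios of 2.79, 2.77, 3.06 and 2.03, Gria3 of 3.69, 3.30, 1.80 and 1.51 and Gabra5 of 3.03, 1.85, 2.01 and 1.96. Gria2, Grin1, Grin2b and Grik5 made up the 8, with ratios between 1.51 and 2.34. Grin3a, at 0.248, 0.149, 0.414 and 0.432, and Grm7, at 0.316, 0.150, 0.663 and 0.197, were the 2 members below the rest in every library, against 3.7% of all genes. These spots held few UMIs, with medians of 2195, 2762.5, 5144.5 and 6184 per spot. When Pcp4, which gave 50.7% of the list's UMIs, was left out of the ranking, 5 members stayed above (Gria2, Grin1, Grik2, Grik5 and Grm4) and Grm7 alone below.

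In periglomerular-ranked spots, ordered by genes of dopaminergic interneurons around the glomeruli, 3 of 26 members were above the rest, against 0.681% of all genes. These spots were not alike between libraries, since the list lay at 2424, 2702, 827 and 823 CPM in those of libraries 1 to 4. In libraries 3 and 4, 12.3% and 10.6% of them were also granule-ranked, against 0% in libraries 1 and 2. Grin2d had ratios of 2.60, 4.65, 2.57 and 2.86, and in library 1 it lay at 115 CPM in these spots and 44.2 CPM elsewhere, 2.60-fold (2.18 to 3.09). Gria1 had ratios of 1.63, 2.03, 1.60 and 1.63 and Gria4 of 1.59, 1.64, 1.505 and 2.13. Gria3, at 0.448, 0.335, 0.660 and 0.379, and Grin2a, at 0.631, 0.567, 0.459 and 0.411, were below, against 0.62% of all genes. Gria1, Gria4 and Grin2d were also higher in libraries 1 and 2 than in libraries 3 and 4, and Gria3 and Grin2a lower. Other members with such a library difference were not called in these spots, among them Grin2c, Grm2 and Grm4 above and Gabbr2, Grin2b and Grm5 below. Over whole libraries the periglomerular list itself lay at 871, 819, 184 and 182 CPM, and its part in the library values was not tested. Without Th in the ranking, Grin2d alone stayed above.

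In mitral- and tufted-ranked spots, 1 member was above the rest in every library, Grm7, at 2.07, 2.41, 1.81 and 1.67, against 1.92% of all genes. Grm8, which had 80 UMIs in library 2 and was not called, had ratios of 2.61, 1.76, 3.85 and 2.87, and Gabra3 had 1.80, 1.37, 2.502 and 2.501. Without library 2, both of these joined Grm7. Gabbr2 was below the rest in every library, at 0.616, 0.635, 0.313 and 0.329, against 2.12% of all genes. That call of 1 member below became 2 or 3 with any single library left out: Gria3 and Grm5 joined it without library 1, Gabrg3 without library 2, Grin3a without library 3 and Grik2 without library 4. When Doc2g, the most abundant gene of the list, was left out of the ranking, Gabbr2 was no longer called below and Grin3a was, while Gabra3 joined Grm7 above. Among group III genes, Grm7 was thus above the rest in these spots and below it in granule-ranked spots, where Grm4 was above.

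**Figure D3:**
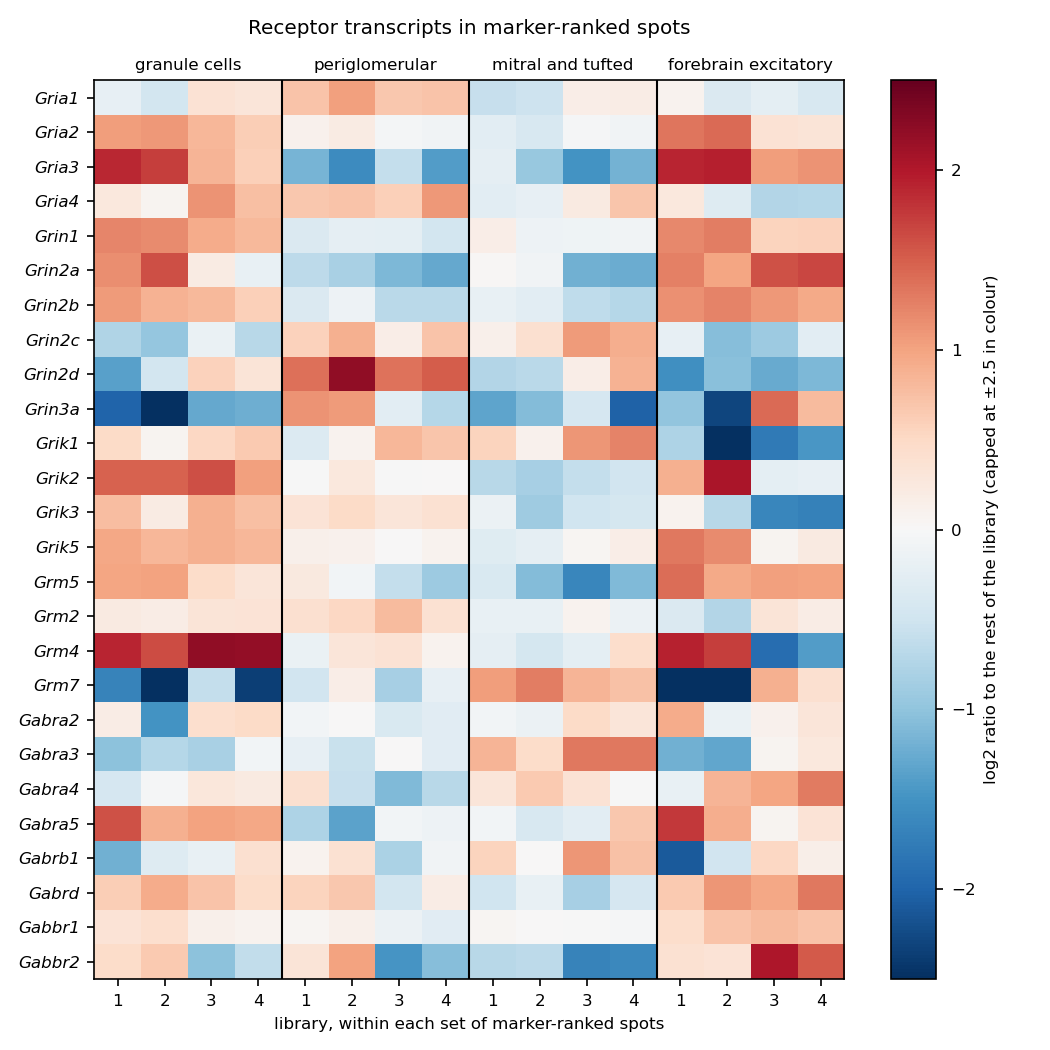
Colours give the log2 ratio of each member in spots ranked by 4 marker lists to the rest of the same library, for the 26 members with at least 100 UMIs in each library, with red above and blue below the rest. Grm4, Grik2 and Gabra5 are red in granule-ranked spots of all 4 libraries, Grin2d in periglomerular-ranked spots and Grm7 in mitral- and tufted-ranked spots.

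Forebrain-ranked spots were not alike in libraries 1 and 2 and in libraries 3 and 4. The list lay at 1282, 1259, 5254 and 5589 CPM in these spots of libraries 1 to 4, and in libraries 1 and 2, 32.5% and 29.2% of them were also granule-ranked, against 0% and 1.06% in libraries 3 and 4. In all 4 libraries 5 of 26 members were above the rest (Gria3, Grin2a, Grin2b, Grm5 and Gabrd), against 1.78% of all genes, and 2 below (Grin2d and Grik1), against 4.09%. The 2 below are too few at that share to set the members apart from other genes, and Grik1 had 0 UMIs in these spots of library 2. Without Nrgn, which gave 75.1% of the list's UMIs, both counts were 0. Gabbr2 lay 4.07-fold (3.63 to 4.57) and 2.91-fold (2.55 to 3.32) above the rest in libraries 3 and 4, and 1.3-fold (0.686 to 2.25) and 1.27-fold (0.540 to 2.57) in libraries 1 and 2. Grm4 was 3.82, 3.30, 0.266 and 0.378-fold, high where the spots overlapped the granule-ranked ones and low where they did not.

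Receptor transcripts were low in spots led by sensory axons, ensheathing glia and meninges. In spots ranked by sensory neuron axon genes 12 of 26 members were below the rest in every library, against 7.47% of all genes, in those of olfactory ensheathing glia 13, against 9.24%, and in those of leptomeninges 10, against 8.95%. These sets share spots: 62.7% of the axon-ranked and 62.0% of the leptomeninges-ranked spots of library 1 were also ranked by ensheathing glia. Without library 2 the leptomeninges count was 16, and without S100a5, the most abundant of the axon genes, the axon count was 2 (Grm4 and Gabrb1). Neither of these 2 counts has the share of all genes beside it, so the change may be one in all genes. Summed receptor ratios in leptomeninges-ranked spots were 0.666, 0.625, 0.431 and 0.456 in libraries 1 to 4, and in phagocyte-ranked spots 0.875, 0.875, 0.474 and 0.548. Low sums were not particular to these lists. Summed ratios were 0.711, 0.733, 0.528 and 0.564 in spots ranked by reactive glia genes. They were 0.827, 0.765, 0.602 and 0.592 for endothelium and 0.706, 0.780, 0.648 and 0.524 for olfactory mucosa. Astrocyte-ranked spots had 0.9003, 0.903, 0.703 and 0.724, and oligodendrocyte-ranked spots 1.38, 1.39, 1.21 and 0.939.

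Subunit shares lay closer together between libraries in granule-ranked spots than over whole libraries. There Grin2a and Grin2b held 65.7, 67.9, 74.3 and 73.9% of GluN2 UMIs in libraries 1 to 4, where the whole libraries held 33.5, 35.3, 67.8 and 65.4%. The granule-ranked shares rest on 143, 81, 230 and 161 GluN2 UMIs, with an interval of 56.6 to 77.8% in library 2. Gria2 and Gria3 held 60.3, 67.5, 64.6 and 64.2% of AMPA UMIs, and Gabbr2 9.69, 10.9, 12.2 and 16.6% of GABA-B UMIs. Close GluN2 shares were not particular to granule-ranked spots. They were 60.4, 64.7, 67.5 and 61.9% in oligodendrocyte-ranked spots, of which 29.5% in library 1 were also granule-ranked. In mitral- and tufted-ranked spots the GluN2 share was 33.7, 31.6, 42.0 and 38.3% and the Gabbr2 share 5.99, 6.71, 9.29 and 10.4%. In forebrain-ranked spots the Gabbr2 share was 8.72, 7.77, 34.1 and 32.3%, on 149, 103, 1588 and 1077 GABA-B UMIs. The difference in the Gabbr2 share between libraries was largest in those spots among the granule, mitral and tufted, and forebrain lists, but the spots were not alike between libraries. Their medians were 1528, 2399.5, 14870 and 14924 UMIs per spot in libraries 1 to 4.

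Clustering gave 14 regions, most of them held by libraries 1 and 2 or by libraries 3 and 4, so that such a region may be the libraries and not a layer. The Nppa region, 509 and 212 spots of libraries 1 and 2 with 5 and 7 of the other two, was the one highest in the periglomerular list. There Grin2d lay at 82.3 and 90.5 CPM and Gria1 at 451 and 472 CPM. The Cacna1h region, 283 and 130 spots of libraries 1 and 2, led in the granule list and held the highest receptor sum of any region, 4519.6 CPM over all its spots. Its median of 1619 UMIs per spot was the lowest of any region. In it Grm4 lay at 257 and 286 CPM and Gabra5 at 195 and 157 CPM. The Trbc2 region, 226 and 194 spots of libraries 3 and 4 and none of the other two, led in forebrain excitatory genes, and Gabbr2 lay there at 241 CPM (224 to 258) and 225 CPM (207 to 243), against 24.5 to 126 CPM in the other regions of these libraries. Grin2a, at 166 and 174 CPM, and Grik4, at 16.2 and 15.3 CPM, also peaked there in both. The Gdf10 region of libraries 3 and 4 and the Klhl30 region of libraries 1 and 2 were the highest for Grm8, at 44.4 and 37.9 CPM and 38.4 and 26.5 CPM. The Gfy region, led by sensory axon genes, was the highest for Grin3a in libraries 1 and 2, at 58.9 and 53.1 CPM. The Ces1a region of libraries 3 and 4, led by phagocyte and reactive glia genes, had the lowest receptor sum, 1381 CPM, yet the highest Grik3, at 129 and 142 CPM.

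**Figure D4:**
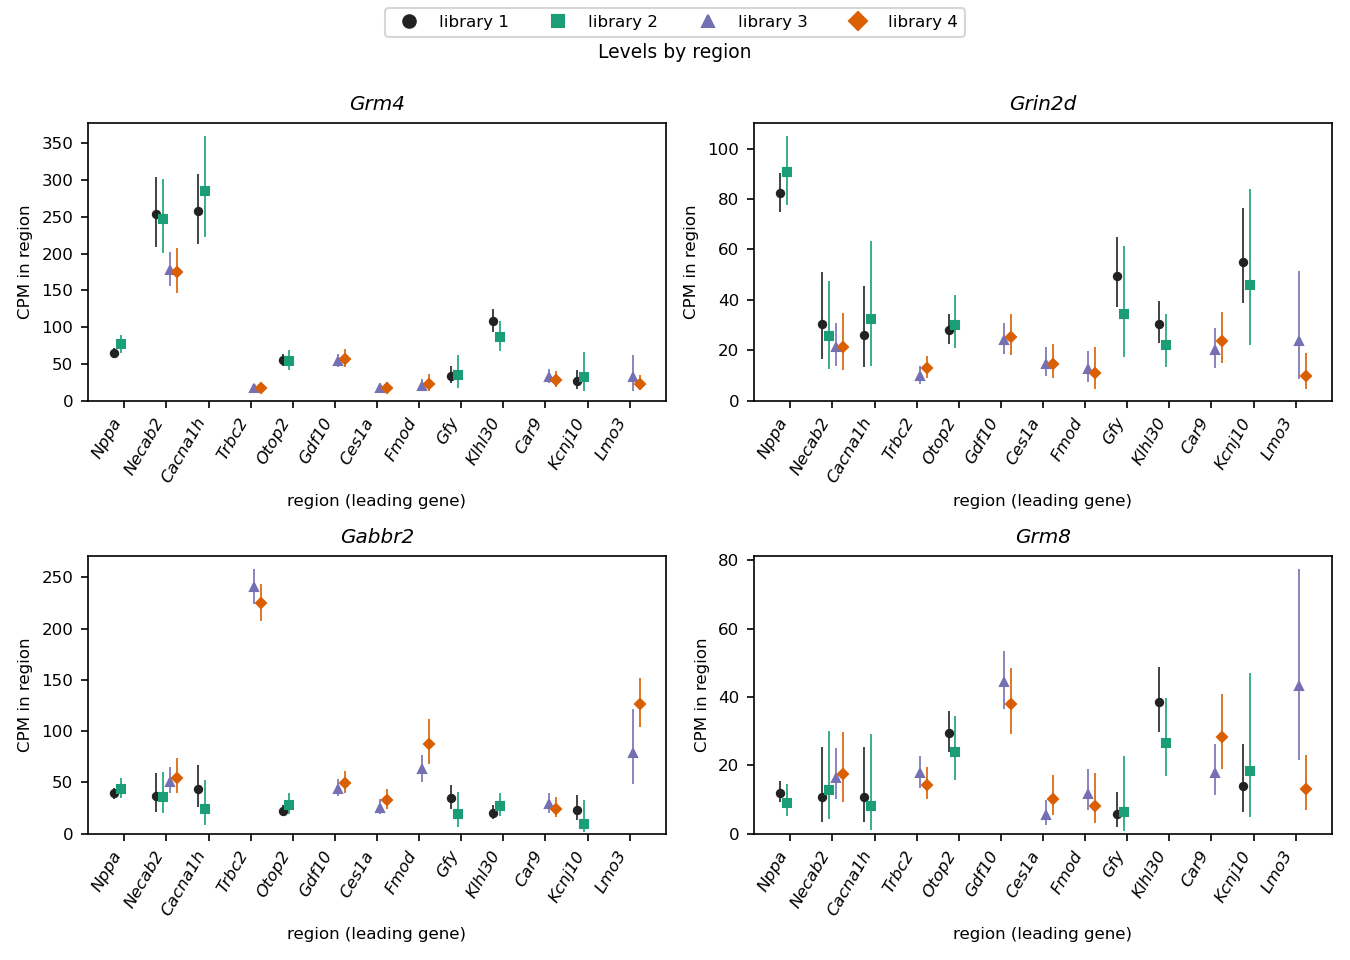
Levels in CPM of Grm4, Grin2d, Gabbr2 and Grm8 in each region with at least 30 spots in a library, with exact 95% Poisson intervals. Gabbr2 peaks in the Trbc2 region of libraries 3 and 4, Grin2d in the Nppa region of libraries 1 and 2, and Grm4 in the Necab2 and Cacna1h regions.

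The Trbc2 and Lmo3 regions are 2 of the 4 regions with no spot in libraries 1 and 2, and the other pair, Ces1a and Car9, stayed in. When the Trbc2 and Lmo3 regions (118 spots in the latter) were left out, Gabbr2 lay at 30.9, 32.0, 41.7 and 47.6 CPM, a spread of 1.54-fold (1.32 to 1.80) in place of 3.43-fold. Gria3 lay at 64.7, 78.7, 90.9 and 81.6 CPM, and Grin2a, at 41.1, 47.7, 44.4 and 38.1 CPM, no longer stood higher in libraries 3 and 4. Grin2d, at 52.5, 51.1, 18.7 and 21.6 CPM, Grin3a, at 29.9, 24.1, 7.83 and 10.7 CPM, and Gabrd, at 51.3, 63.7, 34.6 and 26.9 CPM, were the 3 members past 2-fold of 30 with enough UMIs, where 9.9% of all genes were past it, and these stood higher in libraries 1 and 2. The count of 3 lay near the share of all genes, so in this setting it does not set the members apart from other genes. The setting was added after these data were seen. What else differed between the spots left out and the rest was not tested.

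**Figure D5:**
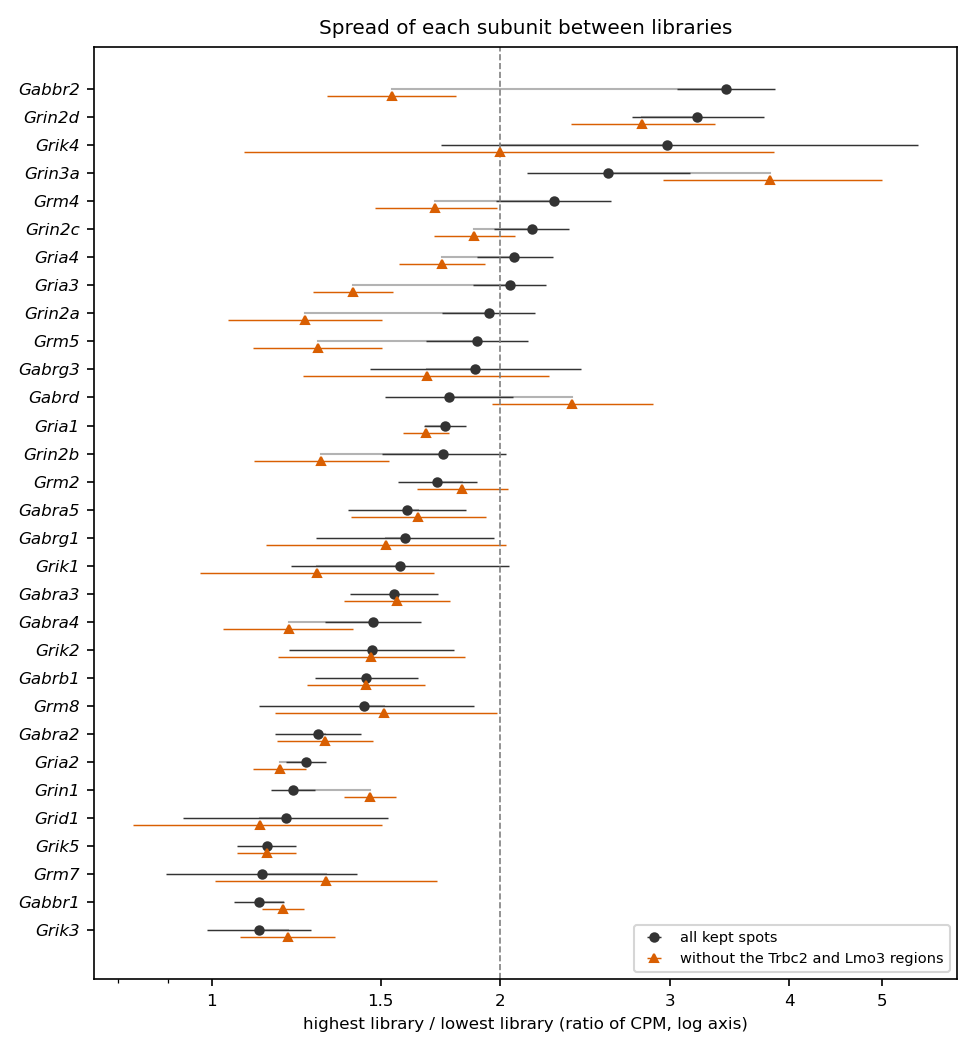
For each of 31 members with at least 200 UMIs over all kept spots, the ratio of its highest to its lowest library on a log axis, over all kept spots (circles) and without the Trbc2 and Lmo3 regions (triangles), with exact 95% intervals; the dashed line marks 2-fold. Gabbr2, Gria3 and Grin2a fall below 2-fold or further from it without these regions, while Grin2d and Grin3a stay above.

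The Necab2 region, which led in migrating neuroblast and oligodendrocyte genes, was the only one with at least 30 spots in each library, at 99, 86, 231 and 139 spots. Inside it 16 members had at least 200 UMIs, and 3 passed 2-fold: Grin2a at 77.9, 131, 86.6 and 62.7 CPM, Gabra5 at 134, 121, 85.8 and 65.3 CPM and Gabrd at 93.1, 111, 62.4 and 48.0 CPM. The share of all genes past 2-fold there was 4.51%, and the median ratio was 1.33 over the members and 1.32 over all genes. None of the 3 had passed over the whole library, and the 3 members that had passed there and had enough UMIs in the region (Gria3, Gria4 and Grm4) did not pass in it. Gria3 lay at 225, 244, 211 and 193 CPM, Gria4 at 152, 134, 145 and 136 CPM and Grm4 at 253, 247, 178 and 175 CPM. When regions were redrawn at coarser or finer clustering, 0 members passed in the best matching region. That count is given without the share of all genes in the redrawn regions.

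Single spots held few receptor UMIs, so shares of spots depend on depth. The median spot held 21, 19, 21 and 23 UMIs over all 33 members in libraries 1 to 4. With all spots reduced at random to 2000 UMIs (233, 89, 42 and 20 spots of libraries 1 to 4 had fewer and were dropped), Gabbr2 had a UMI in 6.16, 7.19, 12.9 and 15.7% of spots, against 21.4, 19.2, 39.5 and 44.6% without thinning and 7.69, 4.41, 9.09 and 9.89% in leptomeninges-ranked spots. Grin2d had a UMI in 9.24, 10.1, 3.19 and 3.36% of thinned spots, 29.3, 26.7, 13.0 and 15.2% without thinning and 7.05, 5.88, 0.826 and 1.099% in leptomeninges-ranked spots. Grm4 had one in 15.5, 17.9, 10.5 and 9.75%, 41.5, 43.9, 30.1 and 29.6% and 8.33, 4.41, 1.65 and 1.099%. The order of the libraries in these shares followed that in CPM for Gabbr2 and Grin2d between libraries 1 and 2 on the one side and 3 and 4 on the other. In library 1 the thinned share of Gabbr2, 6.16% (4.97 to 7.53), did not stand above the 7.69% of leptomeninges-ranked spots. Those spots are no blank, since 62.0% of them were also ranked by ensheathing glia. Whether the UMIs of Gabbr2 in library 1 are background was not tested.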

How the data were processed

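Visium libraries of olfactory bulb from 1 control and 1 mutant mouse were measured as counts of UMIs per gene and spot. The authors deposited these counts for all libraries as 1 matrix, whose header names Space Ranger 1.3.1. The submitters' processing notes name GRCm39 as the build, and no source used here names the annotation or read filters. Barcode numbers 1 to 4 told the libraries apart, and none was assigned to a mouse. Spots with at least 500 UMIs were kept (97 set aside). Kept UMIs summed to 13304973, 5223890, 12533691 and 9533952 in libraries 1 to 4, and 3 UMIs corresponded to 0.225 to 0.574 CPM.

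CPM of summed UMIs were given with exact Poisson intervals, ratios with exact conditional binomial intervals and shares with Clopper-Pearson intervals (scipy 1.17.1). Regions came from 2000 variable genes without member, pathway, marker, mitochondrial, ribosomal protein and haemoglobin genes, 30 principal components, 15 neighbours and Leiden clustering at resolution 0.8 (scanpy 1.11.5, leidenalg 0.10.2). Each region took the name of its leading gene, that with the largest fold against the remaining spots and at least 200 UMIs in the region, passing over mitochondrial, ribosomal, haemoglobin, list and unnamed genes. All 33 members are named, and pathway genes where they passed 2-fold. The members and all lists were chosen with earlier results of these data known. Alternatives were TMM scaling (edgeR 4.0.16), other totals, filters, ranking shares and resolutions, thinning and leaving out libraries or regions. On simulated data for the comparison between libraries (12122 genes), 100% of genes with 4-fold differences passed 2-fold, as did 0% of those with 1.3-fold differences and 0.0419% of unchanged genes. For ranked spots (8372 genes), 98.7% of 3-fold genes passed. Both simulations drew Poisson counts, so they hold counting error and no difference in tissue between libraries or spots. The positions and images of spots were not used.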

Additional observations from a re-analysis of the deposited data

How the results depend on the processing

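The count of 8 members over 2-fold between libraries lay between 7 and 9 under another library scale, total, filter, spot minimum, region weighting or thinning, but was 4 to 7 with 1 library left out, 5 without the Nppa region and 3 without the Trbc2 and Lmo3 regions. The share of all genes is given earlier for the pan-neuronal scale and for leaving out library 3, library 4 or regions. For the other settings it is not given, so a steady or changed count may be one in all genes. In ranked spots, leaving out a library gave 8 to 9 members above and 2 to 3 below for granule cells, 3 above and 2 to 3 below for periglomerular neurons, 1 to 3 above and 2 to 3 below for mitral and tufted cells and 5 to 7 above and 2 to 3 below for forebrain neurons. It gave 12 to 17 below for sensory axons, 13 to 16 for ensheathing glia and 10 to 16 for leptomeninges. With 20% of spots, the counts below were 0 for granule, 1 for periglomerular, 0 for mitral and tufted, 0 for forebrain, 4 for axon and 5 for leptomeninges-ranked spots, and 2 members were above for mitral and tufted cells. With 5% of spots, 2 members were below for mitral and tufted cells. With spots of at least 2000 UMIs, 1 member was below for periglomerular neurons, and 3 were above and 0 below for forebrain neurons. Without a list's most abundant gene, 5 were above and 1 below for granule cells, 1 above for periglomerular neurons, 2 above for mitral and tufted cells (with Grin3a in place of Gabbr2 as the 1 below), 0 above and 0 below for forebrain neurons and 2 below for axons. The count inside the Necab2 region was 0 at resolutions 0.4 and 1.2. The counts for ranked spots and this region are given here without the share of all genes, so a change may be one in all genes. Without the Trbc2 and Lmo3 regions, shares in libraries 3 and 4 were 54.7% and 48.8% for Grin2a and Grin2b, 56.2% and 54.0% for Gria2 and Gria3, 13.8% and 14.8% for Gabbr2 and 57.6% and 56.3% for Grm4. With thinning, the first was 64.9% and 68.5% in libraries 3 and 4, that of Gria2 and Gria3 46.7% and 63.5% in libraries 2 and 4, that of Gabbr2 10.0%, 19.4% and 21.9% in libraries 1, 3 and 4, and that of Grm4 72.3, 80.1, 61.5 and 62% in libraries 1 to 4. With spots of at least 2000 UMIs, Gria2 and Gria3 held 38.1% in library 1. The cause of these changes was not tested. The alternatives that left out regions or a list's most abundant gene were chosen after seeing the data. No paired analysis was possible because the barcode numbers match no label and no result comes from a test. Members under 200 UMIs, Grm3 and Gabrb2, are limited by depth.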

Other observations

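The labels put no barcode number in a group, so the likeness of libraries is given as values. Over the 31 members with at least 200 UMIs, the median fold between libraries 1 and 2 was 1.12, with a highest value of 1.296 for Grm8 and 0 members over 1.5. Between libraries 3 and 4 it was 1.103, with a highest value of 1.59 for Gabrg1, the 1 member over 1.5. The 4 other pairs had medians of 1.38 to 1.5 and 14 to 16 members over 1.5.

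In spots ranked by migrating neuroblast genes Grm4 had ratios to the rest of 1.83, 2.11, 3.68 and 3.42 in libraries 1 to 4, and in those ranked by oligodendrocyte genes ratios of 2.67, 2.29, 2.70 and 1.84. In library 1, 18.7% of the neuroblast-ranked and 29.5% of the oligodendrocyte-ranked spots were also granule-ranked. In astrocyte-ranked spots its ratios were 0.643, 0.560, 0.568 and 0.541.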
